A study of Mus musculus with 6 samples.

Results

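The genes described here are 47 interferon-stimulated antiviral effectors, taken as a named list of mouse genes and found in the deposited table by matching its Ensembl identifiers to symbols. All 47 of them were among the 46983 gene identifiers. Within the list, the 11 IFIT, OAS and ISG15 genes (Ifit1, Ifit2, Ifit3, Ifit3b, Isg15, Oas1a, Oas1g, Oas2, Oas3, Oasl1, Oasl2) were set against 7 GTPase genes (Gbp2, Gbp3, Gbp5, Gbp7, Irgm1, Igtp, Iigp1). RNA was sequenced from untreated C57BL/6 macrophages, 3 libraries from wild-type (WT) and 3 from AEG-1 knockout mice (AEG-1 KO in the plots). Both genotypes were grown from femoral marrow for 7 days in RPMI with 20% L929 conditioned medium, a source of the macrophage growth factor CSF1, and 10% heat-inactivated serum. The gene for AEG-1 is listed as Mtdh. The labels do not state how the allele was made, which part of Mtdh it removes, the age of the mice, or whether the 3 libraries of a genotype come from separate animals, so each p-value rests on library-to-library spread that may be technical.

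Type I interferons signal through the receptor chains IFNAR1 and IFNAR2 and the kinases JAK1 and TYK2 to a complex that holds STAT2 and IRF9 and binds the interferon-stimulated response element (ISRE) of target genes. Interferon gamma signals through IFNGR1 and IFNGR2 to factors that bind the gamma activated sequence (GAS). IFIT proteins bind foreign RNA, OAS enzymes make oligoadenylate messengers in response to double-stranded RNA, and ISG15 is a ubiquitin-like protein that is attached to other proteins. The guanylate-binding proteins (GBP) and immunity-related GTPases (IRG) act on the vacuoles of intracellular bacteria and parasites, and are classed mainly as targets of interferon gamma. Macrophages are known to keep a low basal expression of many of these genes without infection.

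Many promoters of the list, though not all, hold the response elements by which these genes are commonly known. Of 36 members with a promoter window, 25 had an ISRE match and 7 a GAS match. Promoters are printed for members of both contrasted groups, with and without a change, and for Ifi205, the 1 member that was called higher. All of those printed hold an ISRE match, so they are not a typical draw from the list. Each run is the 160 bases before the RefSeq start, 5′ to 3′ on the gene's strand (GRCm38.p6), with matches to the ISRE core (GAAA, any 2 bases, GAAA, on either strand) and the GAS core TTCNNNGAA in capitals.
Isg15: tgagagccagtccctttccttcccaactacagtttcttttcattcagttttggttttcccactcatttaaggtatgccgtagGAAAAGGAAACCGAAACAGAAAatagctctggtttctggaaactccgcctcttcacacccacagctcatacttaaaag
Ifit1: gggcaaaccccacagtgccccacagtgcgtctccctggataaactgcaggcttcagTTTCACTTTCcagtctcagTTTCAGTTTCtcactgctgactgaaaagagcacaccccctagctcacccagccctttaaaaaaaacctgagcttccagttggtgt
Ifit3: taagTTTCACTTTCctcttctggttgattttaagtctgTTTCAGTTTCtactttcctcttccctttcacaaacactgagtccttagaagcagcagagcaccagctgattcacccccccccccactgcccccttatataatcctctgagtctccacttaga
Oas1a: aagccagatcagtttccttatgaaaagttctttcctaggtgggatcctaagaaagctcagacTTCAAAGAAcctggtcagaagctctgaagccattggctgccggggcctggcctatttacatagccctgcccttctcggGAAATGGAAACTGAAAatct
Igtp: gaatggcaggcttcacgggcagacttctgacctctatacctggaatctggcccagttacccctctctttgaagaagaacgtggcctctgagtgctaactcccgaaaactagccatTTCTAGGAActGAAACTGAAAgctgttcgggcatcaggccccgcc
Irgm1: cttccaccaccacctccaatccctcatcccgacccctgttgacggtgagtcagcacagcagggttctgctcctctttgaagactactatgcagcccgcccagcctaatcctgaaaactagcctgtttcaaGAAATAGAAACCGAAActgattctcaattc
Gbp7: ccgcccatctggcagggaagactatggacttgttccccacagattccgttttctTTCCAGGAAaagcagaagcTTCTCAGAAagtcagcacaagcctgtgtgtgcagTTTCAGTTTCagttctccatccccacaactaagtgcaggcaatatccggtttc
Ifi205: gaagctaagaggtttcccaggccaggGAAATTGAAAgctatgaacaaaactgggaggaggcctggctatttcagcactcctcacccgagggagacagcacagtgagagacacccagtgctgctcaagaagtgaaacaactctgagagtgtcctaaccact
The runs lie at chr4:156200819-156200978 (minus strand) for Isg15, chr19:34640729-34640888 (plus) for Ifit1, chr19:34583369-34583528 (plus) for Ifit3, chr5:120907526-120907685 (minus) for Oas1a, chr11:58199396-58199555 (plus) for Igtp, chr11:48871421-48871580 (minus) for Irgm1, chr3:142530176-142530335 (plus) for Gbp7 and chr1:174031756-174031915 (minus) for Ifi205.

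Isg15 held 3 overlapping ISRE matches, which start at -78, -72 and -66 from the gene start. Ifit1 held matches at -104 and -85, and Ifit3 at -156 and -122. Igtp held a GAS match at -45 shortly before an ISRE match at -34, and Gbp7 held GAS matches at -106 and -87 and an ISRE match at -53. Over the whole windows of 250 bases before to 50 after the start, 25 of 36 members with a RefSeq window (69.4%) had an ISRE match, against 3.99% of all 27025 genes with a window. A GAS match stood in 7 of the 36 (19.4%), against 9.55% of all genes, and both motifs in 5 (13.9%, against 0.614%). Of the IFIT, OAS and ISG15 genes, 7 of 10 had an ISRE match and 2 of 10 a GAS match. Of the GTPases the counts were 6 of 6 and 3 of 6. In the members 1 ISRE match overlapped a GAS match, in Bst2. Among members called lower 3 of 4 with a window had an ISRE match, and among those not called 21 of 30. Members without a window were Dhx58, Ifi204, Iigp1, Mx1, Mx2, Oas2, Parp14, Rtp4, Tor3a, Usp18 and Zbp1. A match describes letters in the window and is not evidence of binding.

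The labels were checked first. Mtdh had 11560, 14849 and 11806 reads in the WT libraries and 15, 22 and 15 in the knockout libraries. Total counts per library ran from 42548170 to 58947230, so 1 CPM (counts relative to library size, scaled with TMM factors) was 42.6 to 58.5 reads, and 41 of the 46 members that passed the filter on low counts had at least 500 reads in every library. The 10 macrophage markers were all measured, with summed levels of 17956 to 18433 CPM in WT and 18490 to 19142 CPM in the knockout. Lyz2 and Adgre1 held most of that sum, and singly 4 of the 10 rose, Csf1r, Mertk, Cd14 and Mrc1 (1.27-fold to 1.34-fold, edgeR's adjusted p of 9.19e-04 to 0.00161), and Adgre1 fell (0.877-fold, edgeR's adjusted p = 0.0238). None of the 10 T and NK cell markers passed the filter, with at most 7 reads each. Summed neutrophil markers (8 of 10 tested, 5 higher) were 106 to 129 CPM in WT and 162 to 196 CPM in the knockout, monocyte markers (8 of 8, 4 higher) 59 to 63.2 and 86.9 to 91 CPM, and stromal markers (7 of 10, 3 higher) 10 to 11.8 and 14.4 to 16.2 CPM. Summed plasmacytoid dendritic cell markers (6 of 8 tested, Klk1 at 0 in every library) were 92.3 to 93.8 CPM in WT and 92.5 to 96.6 CPM in the knockout, mostly Tcf4, and B cell markers (6 of 6, 1 higher and 1 lower) 78.3 to 83.7 and 66.2 to 72.5 CPM. Of the plasmacytoid markers Spib fell, from 6.83 ± 0.341 to 3.38 ± 0.16 CPM (SD of 3 libraries, edgeR's adjusted p = 3.74e-04), and the other 5 tested did not pass. Among those 5, Siglech varied widely within a genotype, with 31, 2 and 111 reads in WT and 1, 52 and 49 in the knockout. The part of these cell types in the results below was not tested, and in bulk RNA fewer cells of a type and less RNA per cell cannot be told apart.

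Most interferon-stimulated effectors did not pass the test between the genotypes, and those that passed were mostly lower in the knockout. Usp18, Isg15, Igtp, Ifit1, Tor3a, Zbp1 and Xaf1 fell, to between 77.2% and 87.8% of their WT level. Ifi205, a member of the PYHIN family of nucleic acid-binding proteins, rose 1.48-fold from a low level. Of the 46 tested members, 7 were lower, 1 was higher and 38 did not pass (edgeR quasi-likelihood test at a false discovery rate of 0.05, Benjamini-Hochberg over 16115 genes). Of all genes tested, 6.35% were called, 3.04% lower and 3.31% higher. The median log2 fold change (knockout relative to WT) of the 46 was -0.10, and 34 of them lay below 0; the median over all genes tested was 0.01, and 46.9% lay below 0. All 3 knockout libraries were below all 3 WT libraries in 17 members and above them in 4, where 12.9% and 13.9% of all genes did so. The count of lower members was 4 without WT replicate 1 and 3 without knockout replicate 2 or knockout replicate 3 (964, 380 and 606 genes called in all). It was 11 with DESeq2 (1266 called in all). With the trend on the length and GC share of each gene's longest transcript removed it was 13 (2141 called in all). The count of higher members ranged from 0 to 3 over the same alternatives and the other fits without 1 library.

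**Figure D1:**
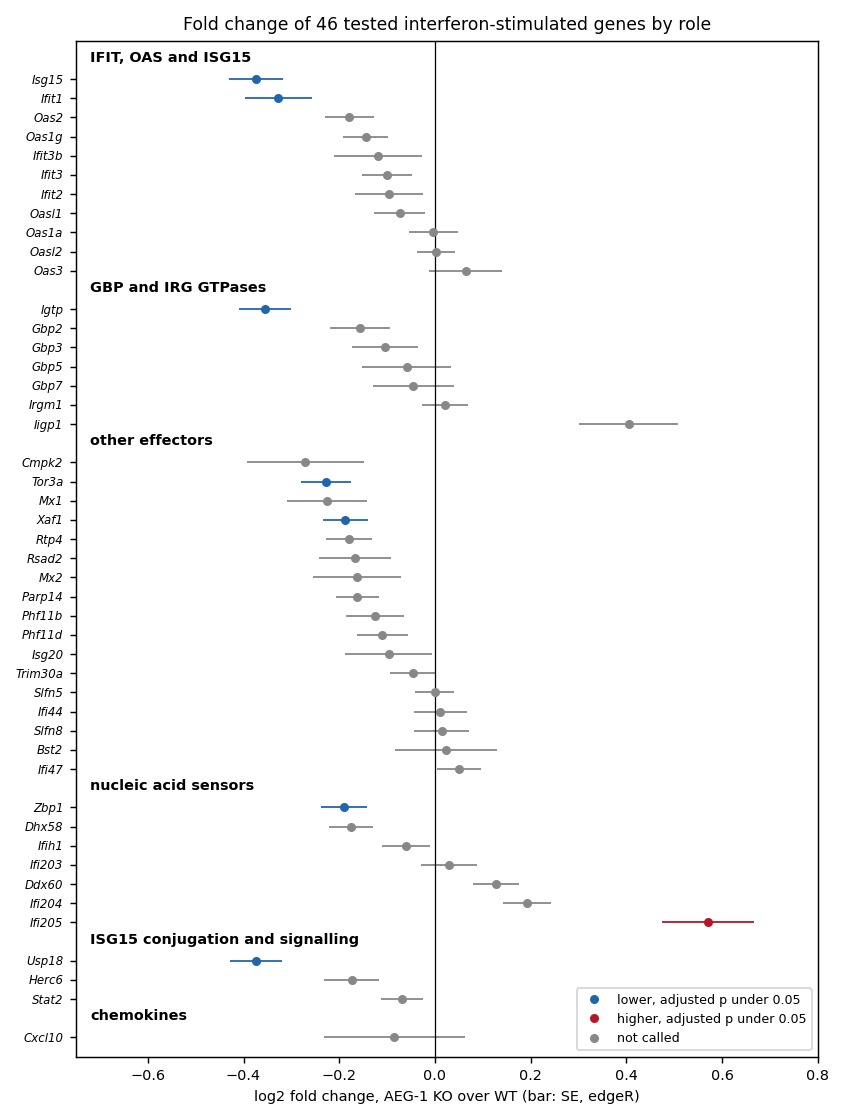
Log2 fold change (knockout relative to WT, horizontal axis; bar, SE from edgeR) of the 46 tested members, grouped by role, with members called lower in blue, higher in red and not called in grey. The values run from -0.37 for Usp18 and Isg15 to 0.57 for Ifi205, and 34 of 46 lie left of 0.

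Of the members, Usp18 and Isg15 had the smallest p-values. Usp18 removes ISG15 from its targets and also dampens signalling at IFNAR2. Its levels were 76.8, 69.2 and 72.4 CPM in WT replicates 1 to 3 and 58.2, 53.6 and 56.7 CPM in knockout replicates 1 to 3. Every knockout library lay below every WT library. The log2 fold change was -0.37 ± 0.06 (SE; edgeR's adjusted p = 0.00461, n = 3 per genotype), and the call held in all 15 alternative fits. Usp18 (GRCm38 chromosome 6, 121245906 to 121270917, plus strand) shares 124 exonic bases with Gm44148 on the other strand, and since the strand setting of the counting is not given in the sources used here its value is uncertain to that extent.

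Isg15 itself (chromosome 4, 156199424 to 156200818, minus strand) had 56.2, 56.4 and 52.6 CPM in WT and 42.6, 40.1 and 44.9 CPM in the knockout. The highest knockout library was thus below the lowest WT library. Its mean fell from 55.1 ± 2.15 to 42.5 ± 2.41 CPM (SD of 3 libraries), a log2 fold change of -0.37 ± 0.06 (SE, edgeR's adjusted p = 0.00547). A stretch of 482 nucleotides is 95.2% identical in the gene AC151275.1, so reads could be split between them. Herc6, the ligase that attaches ISG15 in mice, had 63.8 ± 2.34 CPM in WT and 56.5 ± 3.57 CPM in the knockout, without overlap, and did not pass (log2 fold change -0.17 ± 0.06 SE, edgeR's adjusted p = 0.116). Among the alternatives Herc6 passed only with the length and GC trend removed (edgeR's adjusted p = 0.00637). It shares exonic bases with Gm45193. The E1 enzyme gene Uba7 and the E2 enzyme gene Ube2l6, which load ISG15, did not pass either, at log2 fold changes of -0.02 and 0.14 (edgeR's adjusted p = 0.822 and 0.172). Stat2, the interferon signal transducer, had 189.8, 178.8 and 174.2 CPM in WT and 171.5, 173.2 and 173 CPM in the knockout without overlap, and did not pass (log2 fold change -0.07 ± 0.04 SE, edgeR's adjusted p = 0.417).

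Of the 4 IFIT genes, RNA-binding proteins encoded near each other on chromosome 19, 1 fell and 3 did not pass, and the difference among them was not tested. Ifit1 (34640871 to 34650009, plus strand), which recognises the 5′ end of foreign RNA, had 102, 86.2 and 96.7 CPM in WT and 79.3, 77 and 70.6 CPM in the knockout. It fell by 0.33 on the log2 scale (SE 0.07, edgeR's adjusted p = 0.025), with no overlap of the genotypes. The call of Ifit1 was lost without knockout replicate 2 or 3 (edgeR's adjusted p = 0.0888 and 0.077; 5.28e-04 to 0.106 over all alternatives). Ifit2, which binds AU-rich RNA, had 192, 157 and 178 CPM in WT and 166, 170 and 157 CPM in the knockout. Ifit3 had 161, 145 and 156 CPM in WT and 143, 150 and 138 CPM in the knockout. Both overlapped between genotypes and did not pass (edgeR's adjusted p = 0.482 and 0.312). Ifit3b had 15, 13 and 13.2 CPM in WT and 13.5, 13.2 and 11.1 CPM in the knockout (edgeR's adjusted p = 0.51). It matches Ifit3 at 97.8% over 1700 nucleotides, so the counts of this pair are uncertain.

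None of the 6 OAS family genes, which sense double-stranded RNA, passed in edgeR or limma-voom. Oas1g and Oas2 had an unadjusted p under 0.05 in edgeR, where a gene at 0.0511 ranked 3516 of all 16115 tested. Oas1a had 78.1, 76.7 and 73.4 CPM in WT and 77.3, 71.4 and 79 CPM in the knockout (log2 fold change 0.00 ± 0.05 SE, edgeR's adjusted p = 0.982). Its near copy Oas1g, 97.6% identical over 1861 nucleotides, had 174, 185 and 170 CPM in WT and 162, 153 and 163 CPM in the knockout (edgeR's adjusted p = 0.115). Among the alternatives Oas1g passed only with the length and GC trend removed (edgeR's adjusted p = 0.0356). Oas1a overlapped between genotypes whereas Oas1g did not, and reads may be split between the pair. Oas2 had 143, 139 and 139 CPM in WT and 132, 118 and 122 CPM in the knockout. It was lower in every knockout library, with a log2 fold change of -0.18 ± 0.05 (SE, edgeR's adjusted p = 0.0716), and passed with DESeq2, with the length and GC trend removed and without knockout replicate 1 (adjusted p = 0.0375, 0.0234 and 0.0446). Oas3, the longest of the enzymes, had 249, 228 and 202 CPM in WT and 226, 230 and 254 CPM in the knockout (edgeR's adjusted p = 0.691), and its sign turned to -0.02 without WT replicate 3. The OAS-like genes Oasl1 and Oasl2 overlapped between genotypes. Oasl1, an inhibitor of Irf7 translation, had 58.9, 55.1 and 55.5 CPM in WT and 53.2, 51.3 and 56.5 CPM in the knockout (edgeR's adjusted p = 0.478). Oasl2 had 200, 203 and 204 CPM in WT and 208, 197 and 202 CPM in the knockout (log2 fold change 0.00 ± 0.04 SE, edgeR's adjusted p = 0.989).

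Of the GTPases, 1 fell and 6 did not pass. Igtp (also known as Irgm3; chromosome 11, 58199556 to 58207591, plus strand), an IRG protein that guards host membranes, had 83.4, 77.7 and 78.5 CPM in WT and 66.2, 61.9 and 59.1 CPM in the knockout. Its mean fell from 79.9 ± 3.06 to 62.4 ± 3.6 CPM (SD of 3 libraries), a log2 fold change of -0.36 ± 0.06 (SE, edgeR's adjusted p = 0.00597), and the call held in all 15 alternative fits. Igtp shares 162 exonic bases with its neighbour Irgm2 on the same strand, and Irgm2 fell too, from 99.7 ± 2.36 to 86.7 ± 3.5 CPM (edgeR's adjusted p = 0.0365). The call of Irgm2 was lost in each of the 6 fits without 1 library (edgeR's adjusted p = 0.069, 0.0913 and 0.0601 without WT replicates 1 to 3, and 0.0511, 0.153 and 0.11 without knockout replicates 1 to 3). Irgm1, a regulator of the IRG family, had 105, 101 and 104 CPM in WT and 106, 109 and 100 CPM in the knockout (log2 fold change 0.02 ± 0.05 SE, edgeR's adjusted p = 0.849).

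Iigp1 is an effector IRG GTPase of parasite vacuoles. It had 10.9, 8.27 and 9.87 CPM in WT and 12.1, 13.7 and 12.4 CPM in the knockout, with every knockout library above every WT library. Its log2 fold change was 0.40 ± 0.10 (SE), just outside the threshold (edgeR's adjusted p = 0.0526). It passed in 7 of the 15 alternatives, among them DESeq2 (adjusted p = 0.0145) and the fit without WT replicate 1 (edgeR's adjusted p = 0.0229). Ifi47, another IRG GTPase outside the 7, had 46.9, 46.2 and 46.2 CPM in WT and 49.2, 46.5 and 48.4 CPM in the knockout (edgeR's adjusted p = 0.585). It shares exonic bases with genes on both strands.

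The 4 GBP genes of the list, all on chromosome 3, did not pass. Gbp2, which coats pathogen vacuoles, had 46.5, 48.3 and 49.2 CPM in WT and 44.3, 45.7 and 39.2 CPM in the knockout, without overlap (log2 fold change -0.16 ± 0.06 SE, edgeR's adjusted p = 0.19). Gbp3 had 39.2, 40 and 43.8 CPM in WT and 39.2, 40.4 and 34.9 CPM in the knockout (edgeR's adjusted p = 0.432). Gbp5, known for a role in inflammasome activation, had 14.3, 11.9 and 15 CPM in WT and 12.9, 13.9 and 12.5 CPM in the knockout (edgeR's adjusted p = 0.771). Gbp7 had 21.2, 17.1 and 19.4 CPM in WT and 19.6, 17.5 and 18.7 CPM in the knockout (edgeR's adjusted p = 0.817), and shares 637 exonic bases with Gm43802. Gbp3, Gbp5 and Gbp7 overlapped between the genotypes.

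Set side by side, the 2 groups had medians close to each other. Of the 11 IFIT, OAS and ISG15 genes 2 fell, 0 rose and 9 did not pass in edgeR (4 lower and 0 higher at an unadjusted p under 0.05, 3 and 0 in DESeq2, 2 and 0 in limma-voom), with a median log2 fold change of -0.10. Of the 7 GTPases 1 fell, 0 rose and 6 did not pass in edgeR (2 lower and 1 higher at an unadjusted p under 0.05, 1 and 1 in DESeq2 and in limma-voom), with a median of -0.06. Over all 16115 genes tested, DESeq2 called 1266 and limma-voom 1027. For these and later unadjusted counts the cut is a loose one. Jak1, at an unadjusted p of 0.0511 in edgeR, ranked 3516 of the 16115 by p. The medians differed by -0.04, and by -0.01 to -0.05 when single libraries were left out. The mean log2 CPM of the first group was 6.70, 6.60 and 6.60 in WT and 6.54, 6.49 and 6.51 in the knockout, so the genotypes did not overlap. That of the GTPases was 5.09, 4.94 and 5.08 in WT and 5.02, 5.04 and 4.93 in the knockout, so they did. The difference between the group means was 1.61, 1.66 and 1.52 in WT and 1.52, 1.45 and 1.58 in the knockout, and overlapped. The values are a description, with no test, since the genes were listed with results of these data known.

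**Figure D2:**
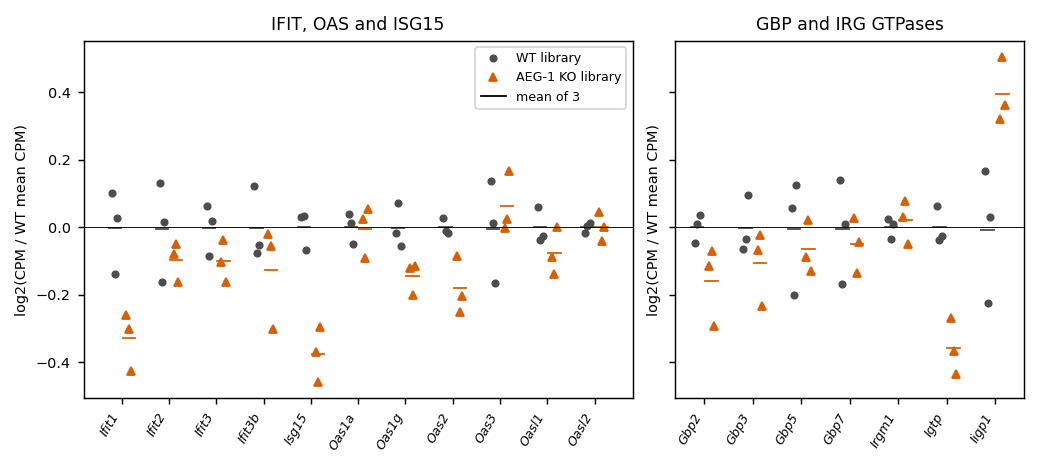
Log2 ratio of each library's CPM to the WT mean (vertical axis) for the 11 IFIT, OAS and ISG15 genes (left) and the 7 GTPases (right), with WT libraries as grey circles, knockout libraries as orange triangles and the mean of 3 as a line. Ifit1, Isg15 and Igtp stand below WT in every knockout library, Iigp1 stands above it, and most other genes overlap.

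Among the 17 other effectors 2 fell and 0 rose in edgeR (5 and 0 at an unadjusted p under 0.05, 4 and 0 in DESeq2, 2 and 0 in limma-voom), with log2 fold changes from -0.27 for Cmpk2 to 0.05 for Ifi47 and a median of -0.13. Tor3a, an interferon-induced ATPase of the torsin family (chromosome 1, 156653617 to 156674356, minus strand), had 198, 178 and 176 CPM in WT and 161, 155 and 156 CPM in the knockout. It fell by 0.23 on the log2 scale (SE 0.05, edgeR's adjusted p = 0.0372). Xaf1, a pro-apoptotic partner of the inhibitor XIAP (chromosome 11, 72301629 to 72313733, plus strand), had 57.7, 57.3 and 59.1 CPM in WT and 52.7, 49 and 51.1 CPM in the knockout. It fell by 0.19 (SE 0.05, edgeR's adjusted p = 0.0491). Neither gene overlapped between the genotypes, yet both calls sat near the threshold. That of Tor3a was lost without any 1 library except WT replicate 3 (edgeR's adjusted p = 0.0552 and 0.078 without WT replicates 1 and 2, and 0.0797, 0.14 and 0.0884 without knockout replicates 1 to 3). That of Xaf1 was lost in all 6 such fits (edgeR's adjusted p = 0.0712, 0.145 and 0.0837 without WT replicates 1 to 3, and 0.0807, 0.208 and 0.113 without knockout replicates 1 to 3). A stretch of Xaf1 also matches 47 other genes at 95% identity or more.

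Just outside the threshold stood Rtp4, a chaperone of receptor transport, and Parp14, a mono-ADP-ribosyltransferase. Rtp4 had 120 ± 3.39 CPM in WT and 106 ± 4.44 CPM in the knockout (SD, n = 3; edgeR's adjusted p = 0.0567), and Parp14 had 551 ± 13.1 and 492 ± 23.5 CPM (edgeR's adjusted p = 0.0712). Both lay below WT in every knockout library, and each passed in 3 of the 15 alternatives. The dynamin-like GTPase genes Mx1 and Mx2 had log2 fold changes of -0.22 and -0.16 and overlapped (edgeR's adjusted p = 0.158 and 0.35). Mx1 is known to be defective in most inbred mice, and the annotation lists Mx2 as a polymorphic pseudogene. Among the alternatives Mx1 passed only without WT replicate 2 (edgeR's adjusted p = 0.0393). Mx1 and Mx2 match each other at 95.3% over 843 nucleotides. Rsad2 (viperin) and its neighbour Cmpk2, which together make a chain-terminating nucleotide, also overlapped, at -0.17 and -0.27 (edgeR's adjusted p = 0.236 and 0.241). The tetherin gene Bst2 had 325, 286 and 241 CPM in WT and 255, 297 and 313 CPM in the knockout. The genotypes overlapped widely, and the difference was not detectable (edgeR's adjusted p = 0.933). Phf11b and Phf11d, transcriptional regulators with near copies, lay below WT in every knockout library at -0.13 and -0.11 without passing (edgeR's adjusted p = 0.268 and 0.275). Trim30a, Slfn5, Slfn8, Ifi44 and the exonuclease gene Isg20 overlapped, with log2 fold changes of -0.10 to 0.01. Rtp4, Parp14, Slfn5, Dhx58, Oasl1, Gbp2 and Cxcl10 share exonic bases with other genes. In 28 of the 47 members a stretch of near-identical sequence was found in another gene. That count is not of gene copies alone. It includes bases shared with an overlapping gene, as for Gbp7 and Gm43802, and stretches found in many genes, as for Slfn5 (413 other genes).

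Of the 7 nucleic acid sensors 1 rose, 1 fell and 5 did not pass, with a median log2 fold change of 0.03. Zbp1, a sensor of Z-form nucleic acid that triggers cell death (chromosome 2, 173206612 to 173218923, minus strand), had 55.7, 56.5 and 53.4 CPM in WT and 49.7, 46.8 and 48.6 CPM in the knockout. It fell by 0.19 (SE 0.05, edgeR's adjusted p = 0.0499), and this call was lost without any 1 library except WT replicate 3 (edgeR's adjusted p = 0.0773 and 0.197 without WT replicates 1 and 2, and 0.0934, 0.193 and 0.103 without knockout replicates 1 to 3). Ifi205 (chromosome 1, 174011998 to 174031810, minus strand) had 4.41, 4 and 4.46 CPM in WT and 6.12, 6.9 and 6.03 CPM in the knockout. All 3 knockout libraries were higher, and Ifi205 was higher by 0.57 ± 0.10 on the log2 scale (SE, edgeR's adjusted p = 0.00882). Its call was lost without WT replicate 2 or knockout replicate 2 (edgeR's adjusted p = 0.0528 and 0.0516). A stretch of 1101 nucleotides is 97.4% identical in Ifi211, so its counts are uncertain.

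Ifi204, a DNA-binding PYHIN protein gene with a similar match to Ifi211, had 300, 302 and 330 CPM in WT and 362, 363 and 340 CPM in the knockout. It stood above WT in every knockout library without passing (log2 fold change 0.19 ± 0.05 SE, edgeR's adjusted p = 0.0557; past the threshold in 3 of 15 alternatives). Its neighbour Ifi203, which shares exonic bases with Mndal, overlapped (0.03, edgeR's adjusted p = 0.822). Of the RNA helicase genes, Dhx58 (LGP2) lay below WT in every knockout library and Ddx60 above, at log2 fold changes of -0.17 and 0.13, and neither passed (edgeR's adjusted p = 0.0557 and 0.165). Dhx58 passed in 5 of the 15 alternatives, among them DESeq2 (adjusted p = 0.0284). Ifih1 (MDA5) overlapped, at -0.06 (edgeR's adjusted p = 0.548).

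Of the 2 chemokine genes, which recruit T cells through the receptor CXCR3, Cxcl9 did not pass the filter, with 3 reads in each WT library and 4, 6 and 6 in the knockout. Cxcl10 had 6.18, 4.46 and 5.6 CPM in WT and 4.9, 5.89 and 4.4 CPM in the knockout (edgeR's adjusted p = 0.795). Cxcl9 was thus not tested, and no difference was detectable for Cxcl10 at this depth.

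**Figure D3:**
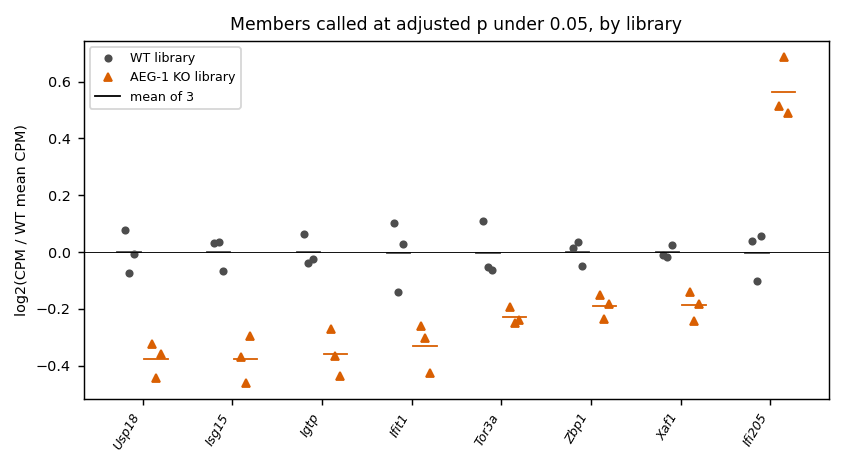
Log2 ratio of each library's CPM to the WT mean (vertical axis) for the 8 members called at an adjusted p under 0.05, with WT libraries as grey circles, knockout libraries as orange triangles and the mean of 3 as a line. All 7 falls and the rise of Ifi205 show no overlap between the genotypes.

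Levels among the members spanned a wide range. Per kb of annotated exon, Bst2 was the most abundant in WT at 314 CPM per kb, followed by Ifit3 at 88.2, Ifi204 at 87.2, Oas1g at 75.3, Trim30a at 74.5 and Isg15 at 72.8 CPM per kb. Ifit3 and Ifi204 did not differ beyond the spread of their libraries, and neither did Oas1g, Trim30a and Isg15. The lowest tested members were Ifi205 at 1.03, Iigp1 at 1.66, Gbp5 at 2.07, Cxcl10 at 2.4 and Gbp7 at 3.43 CPM per kb. The GTPases other than Igtp stood at or below 19.1 CPM per kb, and Igtp at 39.5. The IFIT, OAS and ISG15 genes other than Ifit3b, at 6.86, stood at or above 21.7 CPM per kb. The only call upwards, Ifi205, and the nearest to one, Iigp1, were the 2 lowest members on this scale. The next lowest, Gbp5, Cxcl10 and Gbp7, had log2 fold changes of -0.06, -0.085 and -0.04. Ifi204, also above WT in every knockout library (edgeR's adjusted p = 0.0557), was among the most abundant. The WT level is also the denominator of the fold change, and a link between level and change was not tested.

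**Figure D4:**
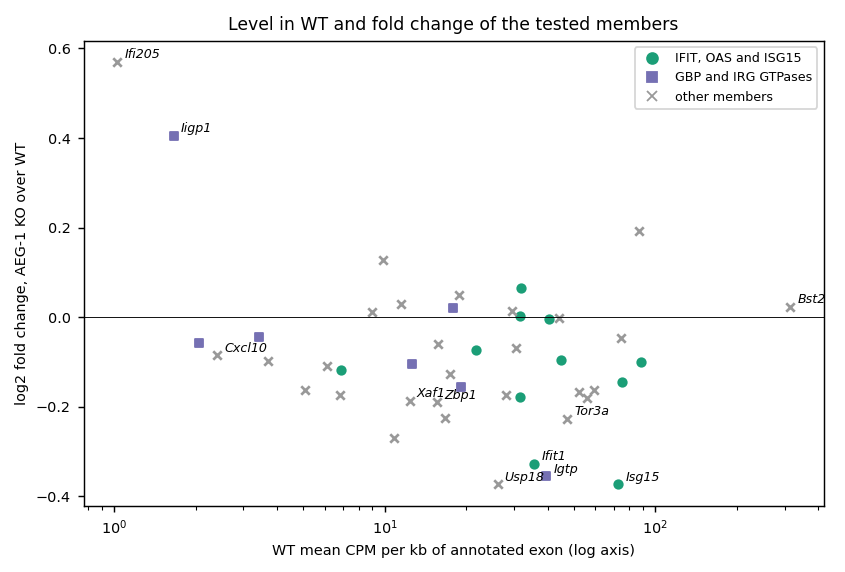
Log2 fold change (knockout relative to WT, vertical axis) against the WT mean CPM per kb of annotated exon (horizontal, log axis) for the 46 tested members, with the 11 IFIT, OAS and ISG15 genes as green circles, the 7 GTPases as purple squares and the others as grey crosses. Ifi205 and Iigp1 lie at the low end with the highest log2 fold changes, 0.57 and 0.40. The next lowest, Gbp5, Cxcl10 and Gbp7, lie below 0, and Bst2 lies at the high end near 0.

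The WT libraries took the same order in many members. WT replicate 2 was the lowest WT library in 29 of the 46 members (63%), against 25.7% of all genes tested, and the order replicate 1, replicate 3, replicate 2 from high to low held in 17 (37%, against 10.2%). Outside the chemokines the highest and lowest WT library differed most in Cmpk2 (1.47-fold), Bst2 (1.35-fold, with replicate 3 lowest) and Iigp1 (1.31-fold). In the same measure Oasl2 and Ifi47 differed by 1.02-fold and 1.01-fold. The median within-genotype SD of log2 CPM was 0.07 over the members and 0.10 over all genes. Without WT replicate 2 the median log2 fold change was -0.14 for the IFIT, OAS and ISG15 genes and -0.13 for the GTPases.

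The upstream parts of the pathway were measured beside the members. Interferon genes were almost silent: of 21 ligand genes 15 had no read in any library, Ifng among them, and none passed the filter. Ifnb1, the interferon that macrophages make first, had 9, 8 and 4 reads in WT and 8, 3 and 2 in the knockout, too few to show a difference. Of the receptor genes, Ifnar1, Ifnar2 and Ifngr1 rose. Ifnar2 had 85, 84.8 and 83 CPM in WT and 104, 111 and 110 CPM in the knockout (log2 fold change 0.36 ± 0.04 SE, edgeR's adjusted p = 0.00171). Ifngr1 had 138, 143 and 143 CPM in WT and 183, 183 and 192 CPM in the knockout (log2 fold change 0.40 ± 0.04 SE, edgeR's adjusted p = 8.82e-04). Neither overlapped, and both calls held in all 15 alternatives. Ifnar1 rose from 180 ± 1.11 to 202 ± 2.35 CPM (edgeR's adjusted p = 0.035), a call lost in all 6 fits without 1 library (edgeR's adjusted p = 0.0882, 0.135 and 0.0704 without WT replicates 1 to 3, and 0.11, 0.19 and 0.0889 without knockout replicates 1 to 3). Ifnar2 shares 315 exonic bases with Gm21970 on the same strand, and Irf9 shares 123 with Rnf31 on the same strand.

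Of the 16 receptor and signalling genes 3 rose, 1 fell and 12 did not pass, with a median log2 fold change of 0.00. The fall was Ptpn6, the phosphatase SHP-1, from 544 ± 23.6 to 458 ± 12.8 CPM (edgeR's adjusted p = 0.0122), which was lost without WT replicate 2 or knockout replicate 2 (edgeR's adjusted p = 0.0591 and 0.0707). Irf9 overlapped, at -0.03 ± 0.05 (SE, edgeR's adjusted p = 0.75).

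Of 20 tested inducers of interferon 4 rose, 1 fell and 15 did not pass, with a median of 0.06. Tlr7 and Tlr8, endosomal RNA receptors, rose from 201 ± 12.7 to 264 ± 15.4 CPM and from 168 ± 10.5 to 215 ± 7.74 CPM (edgeR's adjusted p = 0.0052 for each). Tmem173 (STING) rose from 34.3 ± 0.574 to 40.5 ± 1.68 CPM (edgeR's adjusted p = 0.0247) and Irf1 from 48.5 ± 1.53 to 58.4 ± 1.37 CPM (edgeR's adjusted p = 0.0104). The kinase gene Ikbke fell from 709 ± 19.7 to 615 ± 21.8 CPM (edgeR's adjusted p = 0.0238). Irf7 had 336, 327 and 297 CPM in WT and 360, 365 and 378 CPM in the knockout and lay just outside the threshold (edgeR's adjusted p = 0.055; past it in 7 of 15 alternatives). The call of Irf1 was lost without WT replicate 2 or knockout replicate 2 (edgeR's adjusted p = 0.0598 and 0.072), and that of Ikbke without WT replicate 2, knockout replicate 2 or knockout replicate 3 (edgeR's adjusted p = 0.0944, 0.122 and 0.0716). That of Tmem173 was lost without WT replicate 1 or 2 and knockout replicate 2 or 3 (edgeR's adjusted p = 0.0661, 0.0936, 0.135 and 0.0929). Irf1, Ikbke, Irf7 and Ptpn6 share exonic bases with genes on the other strand.

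**Figure D5:**
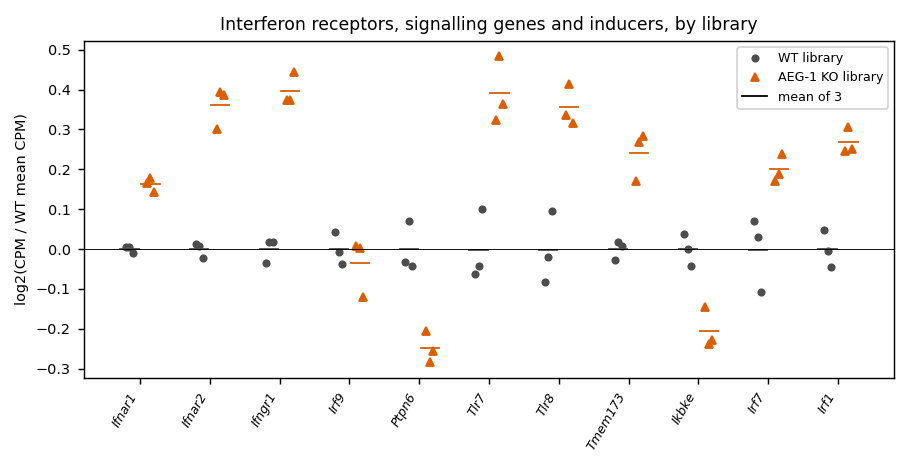
Log2 ratio of each library's CPM to the WT mean (vertical axis) for 11 receptor, signalling and inducer genes, with WT libraries as grey circles, knockout libraries as orange triangles and the mean of 3 as a line. Ifnar1, Ifnar2, Ifngr1, Tlr7, Tlr8, Tmem173, Irf7 and Irf1 stand above WT in every knockout library, and Ptpn6 and Ikbke below it.

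Of 43 other tested interferon-stimulated genes 4 rose, 1 fell and 38 did not pass, with a median log2 fold change of -0.05. Ly6e, Lgals3bp and Slfn1 rose by 0.40, 0.37 and 0.40 on the log2 scale (edgeR's adjusted p = 0.00343, 0.0154 and 0.032). The checkpoint ligand gene Cd274 (PD-L1) fell by 0.23 (edgeR's adjusted p = 0.0206). Slfn1 lost its call without any 1 library except WT replicate 3 (edgeR's adjusted p = 0.0604 and 0.139 without WT replicates 1 and 2, and 0.0692, 0.158 and 0.0645 without knockout replicates 1 to 3). Cd274 lost it without WT replicate 2, knockout replicate 2 or knockout replicate 3 (edgeR's adjusted p = 0.0509, 0.115 and 0.0772), and Lgals3bp without knockout replicate 2 (edgeR's adjusted p = 0.0516). Of 7 other tested IFIT and OAS genes 0 passed in edgeR, DESeq2 or limma-voom, and 1 was higher at an unadjusted p under 0.05 in edgeR. Cd274 shares exonic bases with AC119228.1 on the other strand.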

How the data were processed

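Total RNA was made into Illumina TruSeq libraries, per the labels' protocols. Raw counts of reads for each Ensembl gene were deposited by the authors as 1 table. The submitters' processing notes name featureCounts 1.4.6-p4 and Subread, cutadapt 1.9, and the build as mm10 or GRCm38. Their annotation release, strand setting and treatment of multiply matching reads were not given in the sources used here.

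Of 46983 identifiers 46488 matched GENCODE mouse release M21 (GRCm38), which gave symbols, positions and exon lengths. After filterByExpr (minimum count 10) and TMM scaling, libraries were compared with edgeR 4.0.16 (quasi-likelihood, genotype as only term) in R 4.3.3, with Benjamini-Hochberg adjustment over all 16115 genes. SE was taken from the fold change and its F statistic. Log2 CPM used a prior count of 2. The fit was tested on simulated data, in which the planted changes were larger than those of the members called lower. Within a genotype the chi-square statistic per degree of freedom was 5.58 or more, so no library duplicated another. Near copies were sought with BLAST+ 2.17.0 (95% identity over 100 nucleotides). Members and lists were chosen with earlier results of these data known. The naming rule covered every member (each library's value for the 18 contrasted and any called), Mtdh, Ifnb1, Irf9, Irf7, Ifnar1, Ifnar2 and called pathway genes. Uba7, Ube2l6, Ifng and the genomic neighbours were named after their values were seen. Some items covered by the rule are not reported here. Alternatives were other scalings, filters, DESeq2 1.42.0, limma-voom (limma 3.58.1), a replicate block, single libraries left out and, chosen after seeing the data, removal of a length and GC trend (mgcv 1.9.3).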

Additional observations from a re-analysis of the deposited data

How the results depend on the processing

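Usp18 and Igtp were called in all 15 alternatives, Isg15 in 14, Ifit1 and Ifi205 in 12, Tor3a in 9, Zbp1 in 7 and Xaf1 in 5. Against 7 lower and 1 higher member as reported, DESeq2 called 11 and 3, with 1266 genes called in all. Removal of the length and GC trend gave 13 and 3, with 2141 genes called in all. Upper-quartile scaling, library size alone, no filter and limma-voom each called 2 higher members, Iigp1 joining Ifi205. With the replicate number as a block, 2 lower and 0 higher members and 227 genes, against 1023 as reported, were called. The numbers share no stated origin, and the deviations of same-numbered libraries correlated at -0.50, -0.35 and -0.59, so the block was not taken as pairing. Those of WT replicate 3 with knockout replicate 1 correlated at 0.48, and of WT replicate 1 with knockout replicate 3 at 0.40. The remaining pairs were at 0.04 to 0.27. Where this shared pattern of deviations comes from was not tested. Leaving out 1 library gave 3 to 7 lower and 0 to 2 higher members and 380 to 1094 called genes. Without single libraries the median log2 fold change ranged from -0.14 to -0.07 for the IFIT, OAS and ISG15 genes, from -0.13 (without WT replicate 2) to -0.04 for the GTPases, and from -0.05 to -0.01 for their difference. In the other alternatives it ranged from -0.11 to -0.10 and from -0.08 to -0.05, with Ifi47 among the GTPases at -0.05.

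The sign turned in some alternative for 12 members, none of them called. Their log2 fold changes in the fits without 1 library ranged as follows: Oas1a -0.041 to 0.032, Oas3 -0.017 to 0.13, Oasl2 -0.021 to 0.015, Gbp5 -0.16 to 0.004, Gbp7 -0.13 to 0.019, Irgm1 -0.015 to 0.047, Bst2 -0.086 to 0.12, Ifi44 -0.039 to 0.043, Slfn5 -0.023 to 0.019, Slfn8 -0.031 to 0.054, Ifi203 -0.018 to 0.079 and Cxcl10 -0.22 to 0.011. Oasl2, close to 0 throughout, was at -0.0066 with RLE factors, -0.0037 with upper-quartile scaling, -0.012 without a filter, -0.0034 with the stricter filter and -0.0066 with DESeq2. Ifi44 was at -0.0022 without a filter, and Slfn5 at 3e-04 by library size alone. With the length and GC trend removed Oas1a was at 0.013, Ifi44 at -0.033 and Ifi203 at -0.044. The cause of these changes was not tested. Cxcl9 and the interferon ligand genes had at most 9 reads in any library and were not tested.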

Other observations

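Members and relatives that stand beside each other in the genome were not all on 1 side of 0. Of 10 other tested GBP and IRG genes 2 rose, 1 fell and 7 did not pass, and both rises were on chromosome 5. Gbp8 had 10.1 ± 0.825 CPM in WT and 12.7 ± 0.61 CPM in the knockout (SD, n = 3; log2 fold change 0.33 ± 0.08 SE, edgeR's adjusted p = 0.0429), and Gbp9 had 25 ± 0.703 and 29.4 ± 0.918 CPM (0.23 ± 0.05 SE, edgeR's adjusted p = 0.0359). Both calls were weak: over the fits without 1 library the adjusted p of Gbp8 passed only without WT replicate 3 and was otherwise 0.0714 to 0.192, and that of Gbp9 was 0.052 to 0.156. Their neighbours Gbp4, Gbp6 and Gbp10 were at 0.14, -0.02 and -0.06 (edgeR's adjusted p = 0.486, 0.939 and 0.638), and the chromosome 3 genes Gbp2, Gbp3, Gbp5 and Gbp7 between -0.16 and -0.04. Gbp2b, in the same cluster of chromosome 3, was at -0.42 from a low level and overlapped (1.83 ± 0.2 CPM in WT and 1.38 ± 0.233 CPM in the knockout, edgeR's adjusted p = 0.174). Gbp4, Gbp8 and Gbp9 share exonic bases with one another.

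In the PYHIN cluster of chromosome 1, Ifi205 was called higher at 0.57 and Ifi204 and Ifi209 were at 0.19 and 0.15 (edgeR's adjusted p = 0.0557 and 0.0769), while Ifi203, Mndal and Aim2 were at 0.03, 0.04 and 0.06 (edgeR's adjusted p = 0.822, 0.669 and 0.615). Among the IRG genes of chromosome 11, Igtp and Irgm2 fell by 0.36 and 0.20 while Irgm1, Ifi47 and Tgtp1 were at 0.02, 0.05 and 0.07 and Tgtp2 at -0.20 (edgeR's adjusted p = 0.849, 0.585, 0.742 and 0.444).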
